A study of Mus musculus with 18 samples.

Results

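The cell cycle genes described here are 44 genes of DNA replication and mitosis, read by symbol from a table of 18585 genes measured in mouse forepaws. All 44 symbols were found in the table, and 43 passed the filter on low values (a normalized count of at least 10 in at least 4 libraries). Ccne2, which encodes a cyclin of S phase entry, did not, with 0 to 20 reads per library. The study asked how loss of Sema3b, a secreted semaphorin, bears on gene expression in arthritic joints. Its 18 C57BL/6 forepaw libraries fall into 4 groups: 5 Sema3b-/- arthritis, 5 WT arthritis, 4 Sema3b-/- control and 4 WT control. The labels give neither age nor arthritis model, and RNA was taken from forepaws, where markers of skin, muscle, bone and marrow cells were all read. Libraries were made by CEL-seq, which reads a tag near the 3′ end of each RNA, so levels were compared between libraries and not between genes.

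A cell that divides first licenses its replication origins with the MCM helicase, copies its DNA during S phase, and then separates the chromosomes in mitosis under the control of cyclins, Cdk1 and the Aurora and Polo kinases. E2F factors drive many replication genes, and the DREAM and MuvB complexes, which bind CHR elements, repress or drive many mitosis genes, so that the RNAs of both sets are abundant in cycling cells and scarce in resting cells. In a healthy adult paw the cycling cells are known to lie mostly in bone marrow and in the basal layer of the epidermis. In arthritis, synovial fibroblasts and local myeloid cells can also divide. In bulk libraries such as these, fewer cycling cells and less RNA per cell cannot be told apart.

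Total reads ranged from 1732783 in Sema3b-/- control replicate 1 to 19464892 in WT arthritis replicate 2, with a median of 7279063.5. A count of 0 allowed up to 3 reads, which equalled 12.1 normalized counts in the shallowest library and 2.83 in the median one, for counting error only. Sema3b itself had 0 to 3.49 normalized counts in Sema3b-/- arthritis and 23.7 to 66.7 in WT arthritis. It had 0 to 7.20 normalized counts in Sema3b-/- control and 44.2 to 67.5 in WT control, so no library went against its genotype label. All control titles share a beginning that no arthritis title has, so arthritis cannot be told apart from anything else that the titles mark. Among the arthritis libraries, 3 have a title of another form than the other 7 (Sema3b-/- replicates 1 and 2 and WT replicate 5). By Xist and Y-linked genes, females were 4 of 5 in Sema3b-/- arthritis, 1 of 5 in WT arthritis, 2 of 4 in Sema3b-/- control and 4 of 4 in WT control. Sema3b-/- arthritis replicate 2 and WT arthritis replicate 3 held little muscle and epidermis, with summed skeletal muscle markers of 8819 and 8555 normalized counts against 34643 to 156188 in the other arthritis libraries.

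Promoters of 36 of the 44 genes were found in a RefSeq table for GRCm38.p6, as windows of 250 bases before and 50 bases after the annotated start (the first listed window of each gene). Motifs were searched on both strands: the CHR element (TTTGAA or TTCGAA), the CCAAT box (CCAAT) and the E2F site (TTCCCGC, or TTCGCGC, or also TTGCCGC, or else TTGGCGC). Mitosis windows here are those of the kinase, checkpoint and exit genes and the centromere, kinesin and spindle genes. A CHR match was present in 14 of 17 mitosis windows (82.4%) and 3 of 12 replication and deoxynucleotide windows (25.0%), against 19.4% of all 27025 windows. An E2F match was present in 0 of 17 mitosis windows and 7 of 12 replication and deoxynucleotide windows (58.3%), against 9.69% of all windows. CCAAT was common in both sets, in 14 of 17 (82.4%) and 9 of 12 (75.0%), against 37.9% of all windows. Cyclin, Cdk1, transcription factor and chromatin genes are in neither set, and E2F matches lay in the windows of Cdk1, Ccnb1 and Mki67. Over all 36 windows, 58.3% held a CHR match and 27.8% an E2F match. The 250 bases before the RefSeq start are printed for 4 genes whose RNA rose in arthritis, 1 of replication (Pcna), 2 of mitosis (Bub1 and Prc1) and Cdk1, which has the lowest p of the cyclin group and was added to the others after its values were seen. Motif matches are in capitals. They lie at chr2:132253181-132253430 (Pcna, minus strand), chr10:69352913-69353162 (Cdk1, minus strand), chr2:127831860-127832109 (Bub1, minus strand) and chr7:80294201-80294450 (Prc1, plus strand). RefSeq starts lie inside the GENCODE spans given with the values, so that 134 of the printed bases of Pcna, 26 of Cdk1, 6 of Bub1 and 1 of Prc1 fall within those spans.
Pcna: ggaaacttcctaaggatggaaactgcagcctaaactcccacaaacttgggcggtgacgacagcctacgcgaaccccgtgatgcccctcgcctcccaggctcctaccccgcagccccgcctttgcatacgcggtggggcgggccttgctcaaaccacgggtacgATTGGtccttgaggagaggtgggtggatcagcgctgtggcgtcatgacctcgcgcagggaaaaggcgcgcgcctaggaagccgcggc
Cdk1: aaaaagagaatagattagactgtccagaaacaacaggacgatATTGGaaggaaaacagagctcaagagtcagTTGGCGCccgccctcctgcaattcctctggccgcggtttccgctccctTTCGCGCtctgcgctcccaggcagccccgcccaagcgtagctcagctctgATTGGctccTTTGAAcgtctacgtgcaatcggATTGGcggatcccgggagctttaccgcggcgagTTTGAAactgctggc
Bub1: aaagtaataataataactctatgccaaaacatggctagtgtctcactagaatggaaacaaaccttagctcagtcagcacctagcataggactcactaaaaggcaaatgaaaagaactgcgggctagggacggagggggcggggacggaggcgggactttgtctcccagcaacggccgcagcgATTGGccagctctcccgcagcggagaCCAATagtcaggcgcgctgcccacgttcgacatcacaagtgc
Prc1: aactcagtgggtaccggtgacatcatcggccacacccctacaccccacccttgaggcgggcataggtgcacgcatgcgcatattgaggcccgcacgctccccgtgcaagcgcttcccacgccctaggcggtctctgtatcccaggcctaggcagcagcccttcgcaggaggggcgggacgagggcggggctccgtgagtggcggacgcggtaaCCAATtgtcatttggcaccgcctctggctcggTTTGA
The Pcna window held a single CCAAT match, at position -87 from the start, and none of the E2F or CHR letters. Cdk1 held all 3 motifs, with 2 E2F, 3 CCAAT and 2 CHR matches, the last CHR at position -15. Bub1 held 2 CCAAT matches before the start and a CHR at position 15 after it, which is outside the printed bases. In Prc1 a CCAAT match at position -37 was followed by a CHR that begins at position -5 and ends on the first transcribed base, so only part of it is printed. A match is a description of letters, and binding was not measured.

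A few libraries held the highest and lowest levels of many of the 44 genes. Their summed normalized count was 10805, 12707, 7292, 9252 and 7466 in Sema3b-/- arthritis, 5319.8, 7509.5, 8110.2, 7035 and 6609 in WT arthritis, 7308, 10732, 6133 and 6350.0 in Sema3b-/- control, and 5977, 5850.2, 5287 and 4180.3 in WT control. Sema3b-/- arthritis replicate 2 was highest, and WT control replicate 4 was lowest. Arthritis overlapped with control in both genotypes, as did the genotypes in arthritis, while every Sema3b-/- control was above every WT control. The same libraries recurred gene by gene. Sema3b-/- arthritis replicate 2 had the highest value of 21 of the 44 genes, and WT control replicate 4 the lowest value of 19 of the 43 tested genes. Sema3b-/- control replicate 2 had the highest value of all 18 libraries for 9 genes and Sema3b-/- arthritis replicate 1 for 10.

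Arthritis went with higher levels of most cell cycle genes, by a small amount. Averaged over both genotypes, the log2 fold change was above 0 for 39 of 43 genes (90.7%), against 48.7% of all 13809 tested genes, and its median was 0.34, against -0.01 over all genes. Of the 43, 7 rose and none fell at an adjusted p under 0.05 (limma with Benjamini-Hochberg adjustment over all tested genes, the rule for every call here). That is 16.3% of them, against 12.6% of all genes called higher and 10.9% called lower, so the share called was close to the background. The 7 genes were Pcna, Tk1, Cdk1, Bub1, Cenpa, Cenpe and Prc1. An unadjusted p under 0.05 with a higher level was found for 19 of 43 (44.2%), against 19.1% of all genes.

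Within Sema3b-/- mice, arthritis against control gave 1 gene called higher, Pcna, and none lower (2.33%, against 6.84% of all genes called higher and 5.55% lower). The fold change was above 0 for 37 of 43 (49% of all genes), with a median of 0.42, and 11 of 43 were higher at an unadjusted p under 0.05 (25.6%, against 14.9%). By the same rule 1 of 43 was lower, against 1883 of all 13809 genes. Pcna was also the 1 gene whose 2 groups did not overlap (2.33%, against 7.13%). Within WT mice, arthritis against control gave no call in either direction, against 2.64% of all genes called higher and 1.58% lower. There, 36 of 43 were above 0 (48.1% of all genes), the median was 0.31, and 4 of 43 were higher at an unadjusted p under 0.05 (9.30%, against 11.8%). Groups did not overlap for 2 of the 43, Rrm1 and Birc5 (4.65%, against 5.82% of all genes).

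**Figure D1:**
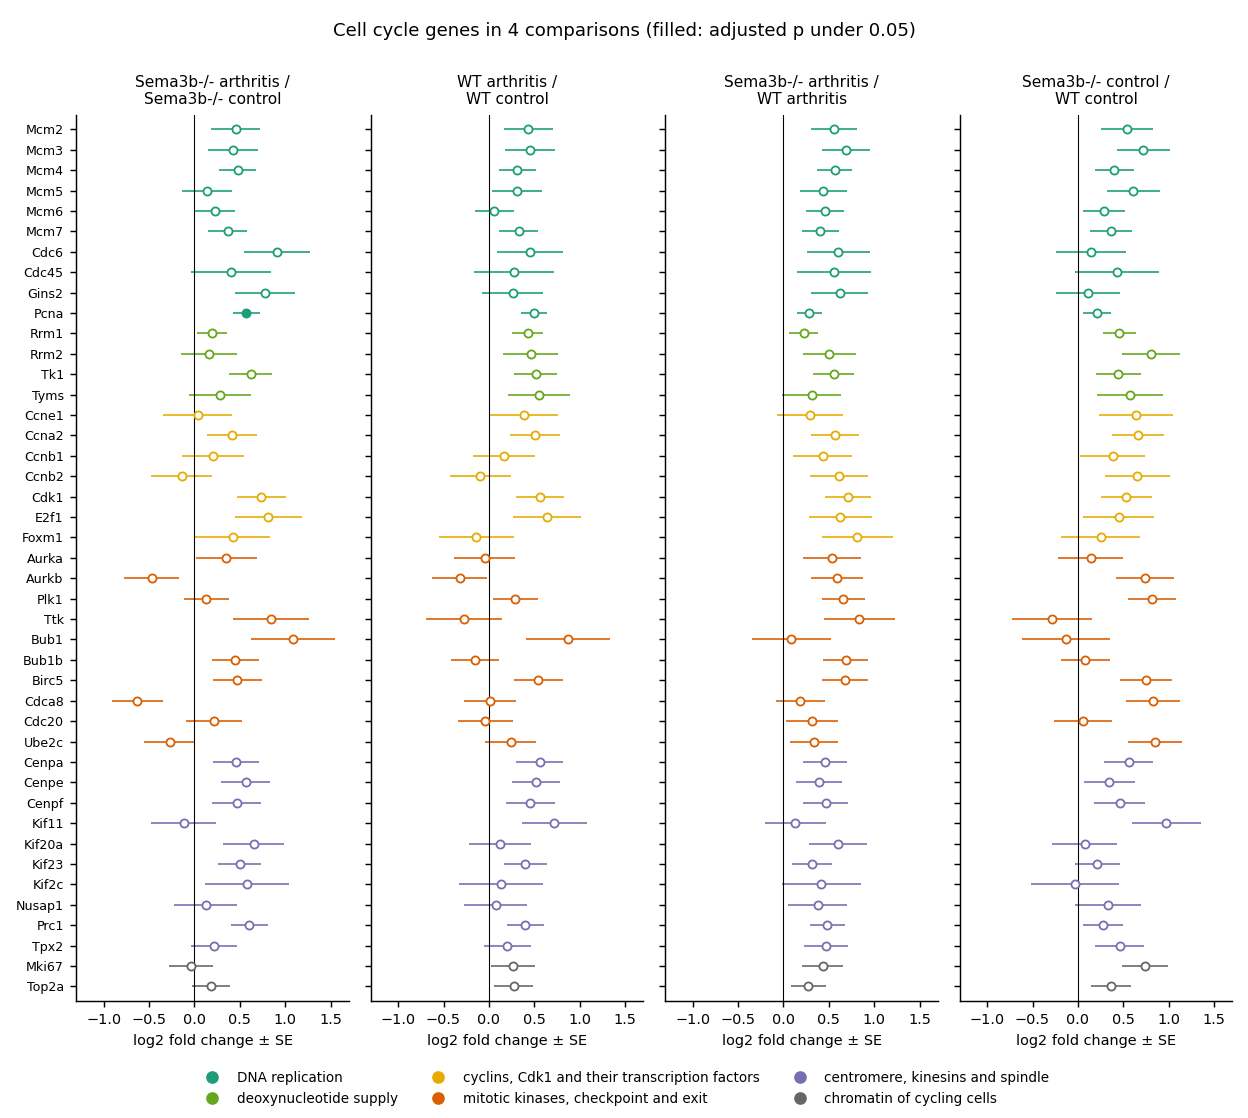
Log2 fold change ± SE (limma) of the 43 tested cell cycle genes in 4 comparisons, coloured by role, with filled points for adjusted p under 0.05. Most points lie right of 0 in every panel, and the filled point is Pcna at 0.57 in Sema3b-/- arthritis against Sema3b-/- control.

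These counts depended on single libraries. Without Sema3b-/- control replicate 2, the control with the highest levels, calls increased to 15 in the average over genotypes and to 5 within Sema3b-/-. Without WT arthritis replicate 1 they were 11 in the average, 2 within Sema3b-/- and 1 (Pcna) within WT. Without Sema3b-/- arthritis replicate 1 or 2, or Sema3b-/- control replicate 4, 4 genes were called in the average. Within Sema3b-/-, none was called without Sema3b-/- arthritis replicate 2 or Sema3b-/- control replicate 3 or 4, and 2 were called without WT control replicate 4. With sex as a term, Pcna and Prc1 were called in the average. The same 2 genes were called without the 2 libraries low in muscle and epidermis, and Pcna alone without the 3 arthritis libraries whose titles have another form.

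Among the 10 replication genes, all were higher in arthritis in both genotypes, with medians of 0.44 in Sema3b-/- and 0.32 in WT, and 1 was called. Counts of calls by role, here and below, are for the average over genotypes, where 12.6% of all genes were called higher. Pcna (chr2:132249162-132253314, GENCODE vM21 annotation of GRCm38, as for the genes that follow) encodes the sliding clamp that tethers DNA polymerases. It had 1425, 1567, 1211, 1371 and 1227 normalized counts in Sema3b-/- arthritis, 877, 1043, 1342, 1187 and 1167 in WT arthritis, 1039.9, 1157, 750.3 and 763 in Sema3b-/- control, and 795, 892, 766 and 710.2 in WT control. All 5 Sema3b-/- arthritis libraries were above every control, and 1 WT arthritis library, replicate 1, was below the highest WT control. Pcna rose by 0.57 ± 0.15 (log2, SE) in Sema3b-/- arthritis (limma adjusted p = 0.0187) and by 0.53 ± 0.10 in the average over genotypes (limma adjusted p = 0.00179). In WT arthritis its log2 fold change was 0.50 ± 0.15 (limma adjusted p = 0.0646). The call in the average held in 29 of 29 alternatives, with limma, edgeR or DESeq2 adjusted p from 6.3e-05 to 0.0179. Within Sema3b-/- it was lost in 5 of 30, including those without Sema3b-/- arthritis replicate 2 and without Sema3b-/- control replicates 3 or 4 (0.48 to 0.69 over single libraries left out).

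Mcm4, a subunit of the MCM helicase, had the second lowest p of the replication genes in the average over genotypes. It had 272, 228, 169, 142 and 137 normalized counts in Sema3b-/- arthritis, 136, 119, 122, 135 and 107 in WT arthritis, 105, 169, 119.9 and 139 in Sema3b-/- control, and 118, 112, 86.3 and 84.4 in WT control. Every Sema3b-/- arthritis library was above every WT arthritis library, by a narrow margin at the nearest pair (137 against 136). Its log2 fold change of 0.39 ± 0.14 in the average was not called (limma adjusted p = 0.0536), but it was in 7 of 29 alternatives, those without Sema3b-/- arthritis replicate 4 or 5 or Sema3b-/- control replicate 2 among them (0.32 to 0.45 over single libraries left out). The other MCM subunits, Mcm2, Mcm3, Mcm5, Mcm6 and Mcm7, had log2 fold changes of 0.44, 0.44, 0.22, 0.14 and 0.35 in the average, and none was called. Cdc6, which loads the helicase, and Gins2 and Cdc45, which activate it, had 0.68, 0.52 and 0.34 with wider errors (SE 0.26, 0.24 and 0.31).

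All 4 deoxynucleotide supply genes were higher in arthritis in both genotypes, and 1 was called. Tk1 (chr11:117815526-117826092), the salvage thymidine kinase of S phase, had 183, 357, 158, 189.9 and 225 normalized counts in Sema3b-/- arthritis, 118, 121, 195, 159.9 and 144 in WT arthritis, 117, 207, 126 and 119.9 in Sema3b-/- control, and 119, 123, 78.8 and 91.2 in WT control. Sema3b-/- control replicate 2 reached into the Sema3b-/- arthritis range, and the 2 lowest WT arthritis libraries lay among the WT controls. Tk1 rose by 0.57 ± 0.17 in the average (limma adjusted p = 0.0214). Its call was lost in 4 of 29 alternatives, including the one without WT control replicate 3 (adjusted p up to 0.0702 over all of them).

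Rrm1, the large subunit of ribonucleotide reductase, had 307, 374, 237, 242 and 222 normalized counts in Sema3b-/- arthritis, 207, 260.4, 228, 237 and 233 in WT arthritis, 227, 298, 223 and 211 in Sema3b-/- control, and 198, 182, 191 and 129 in WT control. Every WT arthritis library was above every WT control, and every Sema3b-/- control was also above every WT control. Its log2 fold change was 0.31 ± 0.12 in the average and was not called (limma adjusted p = 0.0663), but it was in 2 of 29 alternatives, one of them without Sema3b-/- control replicate 2 (0.24 to 0.36 over single libraries left out). Rrm2, the small subunit, and Tyms, thymidylate synthase, had 0.31 ± 0.22 and 0.42 ± 0.24.

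Of the 7 tested cyclin, Cdk1 and transcription factor genes, 6 were higher in the average, and 1 was called. Cdk1 (chr10:69335146-69352938), the kinase that drives entry into mitosis, had 657, 1120.1, 508, 546 and 658 normalized counts in Sema3b-/- arthritis, 232, 419, 549.6, 504 and 426 in WT arthritis, 380.3, 524, 364 and 359 in Sema3b-/- control, and 356, 305, 319.9 and 169.7 in WT control. WT arthritis replicate 1 lay below 3 of the 4 WT controls, and the other 4 lay above all of them. Every Sema3b-/- control was above every WT control. Cdk1 rose by 0.65 ± 0.19 in the average (limma adjusted p = 0.0202), a call lost in 3 of 29 alternatives, none of which left out 1 library.

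E2f1, the factor that opens S phase gene expression, had 136, 175, 105, 173 and 145 normalized counts in Sema3b-/- arthritis, 68.0, 90.3, 65.5, 153 and 113 in WT arthritis, 40.5, 141, 99.7 and 78.0 in Sema3b-/- control, and 27.6, 55.0, 86.3 and 94.6 in WT control. All groups overlapped with their controls, and its 0.73 ± 0.26 in the average was not called (limma adjusted p = 0.0521). It was called in 9 of 29 alternatives, those without Sema3b-/- arthritis replicate 3, WT arthritis replicate 1 or 3, Sema3b-/- control replicate 2 or WT control replicate 3 or 4 among them (0.55 to 0.86 over single libraries left out). Among the cyclins, Ccna2, Ccnb1, Ccnb2 and Ccne1 had log2 fold changes of 0.46, 0.18, -0.12 and 0.21 in the average. Foxm1, a driver of mitosis genes, had 0.14 ± 0.29.

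The 10 mitotic kinase, checkpoint and exit genes were mixed in sign, with 7 of 10 above 0 in Sema3b-/- arthritis, 5 of 10 in WT arthritis and 1 called in the average. Bub1 (chr2:127801122-127831865), a kinase of the spindle checkpoint, had 29.8, 37.0, 19.1, 30.5 and 18.1 normalized counts in Sema3b-/- arthritis, 17.7, 34.0, 26.4, 25.5 and 20.9 in WT arthritis, 4.05, 27.9, 17.8 and 8.39 in Sema3b-/- control, and 13.3, 17.1, 5.63 and 20.5 in WT control. Its counts were low, and the lowest of them stood on 1 read (Sema3b-/- control replicate 1). Bub1 rose by 0.98 ± 0.33 in the average (limma adjusted p = 0.037), the largest fold change of the 7 called genes. The call was lost in 14 of 28 alternatives (0.76 to 1.18 over single libraries left out), edgeR on the recovered reads among them. These were the fits without Sema3b-/- arthritis replicate 1, 2 or 4, WT arthritis replicate 2, 3 or 4, Sema3b-/- control replicate 1 or 4, or WT control replicate 1 or 3, and 4 others.

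Birc5, or survivin, the chromosomal passenger protein, had 259, 382, 136, 275 and 179.9 normalized counts in Sema3b-/- arthritis, 133, 175, 154, 137 and 128 in WT arthritis, 121, 259.8, 141 and 173 in Sema3b-/- control, and 124, 106, 111 and 65.7 in WT control. WT arthritis lay above WT control without overlap, and 3 Sema3b-/- arthritis libraries, replicates 1, 3 and 5, lay within the Sema3b-/- control range. Birc5 had 0.51 ± 0.19 in the average and was not called (limma adjusted p = 0.0619), but it was in 3 of 29 alternatives, those without Sema3b-/- arthritis replicate 3 or Sema3b-/- control replicate 2 among them (0.41 to 0.62 over single libraries left out). Of its partners in the same complex, Aurkb and Cdca8 had fold changes below 0 in Sema3b-/- arthritis and Incenp had 0.32 ± 0.30, none of them called. Aurkb, the kinase of the complex, had -0.47 ± 0.30, with 31.2 to 46.4 normalized counts in Sema3b-/- arthritis against 37.2 to 72.8 in Sema3b-/- control. Cdca8, or borealin, had -0.63 ± 0.28, with 38.2 to 98.6 against 59.4 to 125. Both had their highest value of all 18 libraries in Sema3b-/- control replicate 1, the shallowest library. Ttk, another checkpoint kinase, had 0.85 ± 0.42 in Sema3b-/- arthritis and -0.27 ± 0.42 in WT arthritis. The remaining genes, Aurka, Plk1, Bub1b, Cdc20 and Ube2c, had -0.02 to 0.21 in the average.

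All 10 centromere, kinesin and spindle genes were above 0 in the average, and 3 of 10 were called, against 12.6% of all genes called higher. Roles hold few genes and differ in size, so these counts do not rank them. Prc1 (chr7:80294450-80316259), which bundles the microtubules of the central spindle, had 384, 364, 305, 336 and 260.5 normalized counts in Sema3b-/- arthritis, 229, 251, 228, 262 and 203 in WT arthritis, 146, 293, 219.6 and 225 in Sema3b-/- control, and 190.1, 222, 206 and 113 in WT control. Only Sema3b-/- arthritis replicate 5 lay below the highest Sema3b-/- control, and WT arthritis replicate 5 below the highest WT control. Prc1 rose by 0.50 ± 0.14 in the average (limma adjusted p = 0.0184), lost in 1 of 29 alternatives.

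Cenpa (chr5:30666777-30674830), the histone variant that marks centromeres, had 424, 495, 236, 372 and 281 normalized counts in Sema3b-/- arthritis, 148, 244, 331, 299 and 294 in WT arthritis, 227, 351, 204 and 254 in Sema3b-/- control, and 224, 191, 166 and 123 in WT control. Arthritis and control overlapped in both genotypes, most of all through WT arthritis replicate 1. Cenpa rose by 0.51 ± 0.18 (limma adjusted p = 0.0496), just inside the threshold, and the call was lost in 19 of 29 alternatives (adjusted p up to 0.228). Among them were fits without each of Sema3b-/- arthritis replicates 1, 2 and 4, WT arthritis replicates 2 to 5, Sema3b-/- control replicates 1, 3 and 4 and WT control replicates 2 to 4 (0.43 to 0.61).

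Cenpe (chr3:135212537-135273611), a kinesin of the kinetochore, had 202, 235, 127, 158 and 141 normalized counts in Sema3b-/- arthritis, 109, 118, 197, 107 and 127 in WT arthritis, 146, 160.3, 93.8 and 75.6 in Sema3b-/- control, and 127, 100.2, 80.7 and 61.4 in WT control. Arthritis and control overlapped in both genotypes. Cenpe rose by 0.54 ± 0.19 (limma adjusted p = 0.0443), lost in 14 of 29 alternatives (adjusted p up to 0.183). Among them were fits without Sema3b-/- arthritis replicate 1, 2 or 4, WT arthritis replicate 3 or 5, Sema3b-/- control replicate 3 or 4, or WT control replicate 2, 3 or 4 (0.44 to 0.62). Cenpf, Kif11, Kif20a, Kif23, Kif2c, Nusap1 and Tpx2, the other genes of this role, had 0.10 to 0.46, and none was called.

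The 2 chromatin genes most used to count cycling cells did not pass the test. Mki67, the Ki-67 antigen, had 446, 480.5, 289, 412 and 278 normalized counts in Sema3b-/- arthritis, 237, 404, 332, 222 and 226 in WT arthritis, 295, 551, 395 and 332 in Sema3b-/- control, and 254, 301, 224 and 160.3 in WT control. Its highest library of all was a control, Sema3b-/- replicate 2. The log2 fold change was -0.04 ± 0.24 in Sema3b-/- arthritis, 0.27 ± 0.24 in WT arthritis and 0.11 ± 0.17 in the average (limma adjusted p = 0.658). Top2a, the topoisomerase that untangles chromosomes, had 465, 635, 375, 466 and 334 normalized counts in Sema3b-/- arthritis, 358, 451, 412, 326 and 306 in WT arthritis, 279, 587, 326 and 435 in Sema3b-/- control, and 369, 309, 284 and 263 in WT control. Its average was 0.23 ± 0.15 (limma adjusted p = 0.272), and its groups overlapped in both genotypes.

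**Figure D2:**
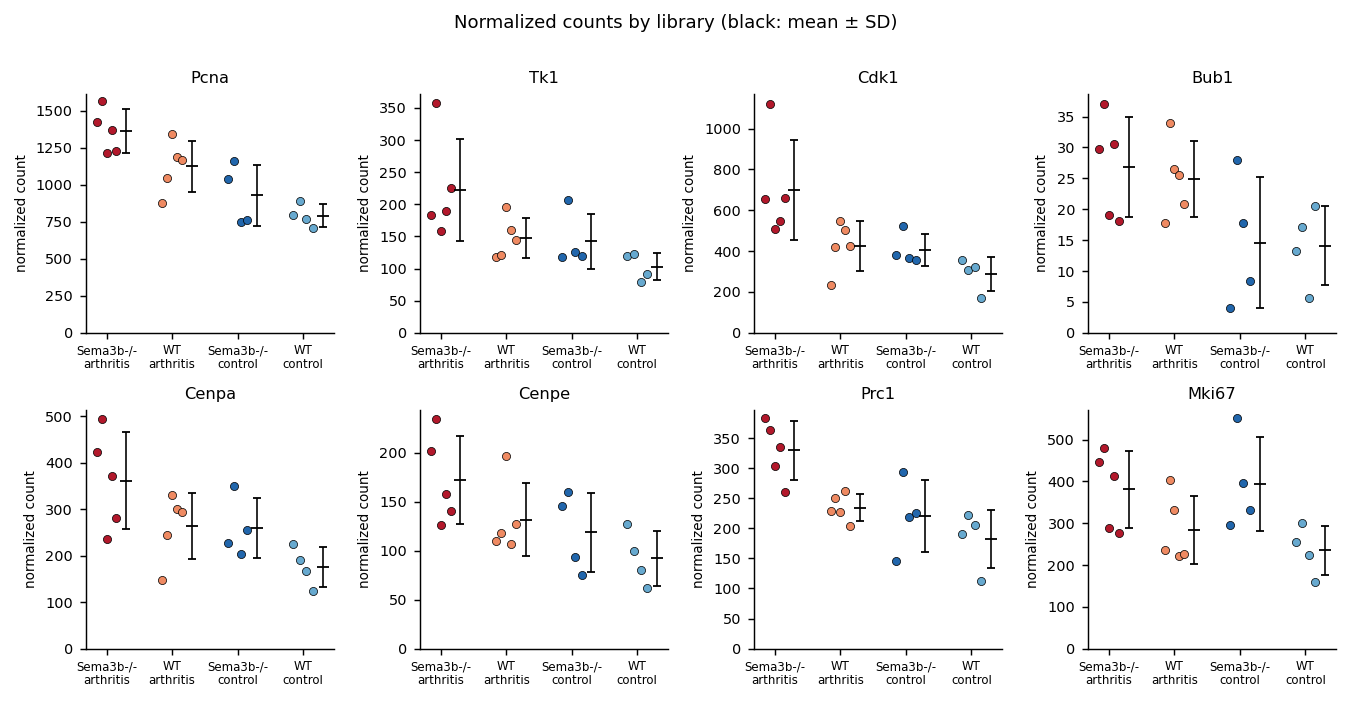
Normalized counts per library of the 7 genes called in the average over genotypes and of Mki67, with the mean ± SD of each group in black (n = 5, 5, 4 and 4). Pcna is at least 1211 in the 5 Sema3b-/- arthritis libraries and at most 1157 in the controls, while Mki67 is highest in a Sema3b-/- control.

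The genotype comparisons gave no call among the 43 genes, beside a tilt to one side. In Sema3b-/- arthritis against WT arthritis, all 43 log2 fold changes were above 0 (50.3% of all genes were), with a median of 0.47. None of the 43 was called higher or lower, against 0% and 0.0217% of all genes, and 12 were higher at an unadjusted p under 0.05 (27.9%, against 3.94%). Groups did not overlap for 1 gene, Mcm4 (2.33%, against 0.775% of all genes). In Sema3b-/- control against WT control, 40 of 43 were above 0 (49.1% of all genes), the median was 0.45, and none was called, against 0% of all genes called higher and 0.0145% lower. There, 12 of 43 were higher at an unadjusted p under 0.05 (27.9%, against 2.66%). Mcm3, Rrm1, Cdk1, Plk1, Cdca8 and Ube2c were higher in every Sema3b-/- control than in any WT control (6 of 43, 14.0%, against 2.07% of all genes). All 43 genes were read in the same libraries, so these counts are not 43 separate observations. The arthritis and genotype comparisons also share groups.

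A genotype contrast averaged over control and arthritis was added after the data were seen. It gave 42 of 43 genes above 0 (48.6% of all genes), a median of 0.47 and 25 genes higher at an unadjusted p under 0.05 (58.1%, against 4.21%). None was called, against 0.00724% of all genes called higher and 0.0579% lower. The lowest p belonged to Plk1, the Polo kinase of mitotic entry, at 0.74 ± 0.17 (limma adjusted p = 0.191). Plk1 had 117, 83.4, 67.3, 84.5 and 70.8 normalized counts in Sema3b-/- arthritis, 34.0, 54.1, 51.7, 51.9 and 78.0 in WT arthritis, 64.7, 120.1, 70.0 and 60.0 in Sema3b-/- control, and 47.5, 48.7, 38.5 and 36.7 in WT control. Sema3b-/- libraries were above WT libraries in both states except WT arthritis replicate 5. DESeq2 on the recovered reads called Plk1 and Birc5. Sex differed between the groups compared. The fit with sex as a term used limma, which called none without that term either, and DESeq2 was not fitted with sex. Whether the 2 DESeq2 calls depend on sex was therefore not tested.

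The interaction, the arthritis effect in Sema3b-/- minus that in WT, gave no call among the 43 genes or among all genes (0% each way). Its log2 value was above 0 for 26 of 43 (50.9% of all genes) with a median of 0.04, and none was higher at an unadjusted p under 0.05, against 2.43% of all genes. The values ran from -0.84 for Kif11, a spindle kinesin, to 1.12 ± 0.59 for Ttk (limma adjusted p = 0.974). Ttk had 31.2 to 85.3 normalized counts in Sema3b-/- arthritis, 8.05 to 57.7 in WT arthritis, 24.3 to 42.0 in Sema3b-/- control and 33.2 to 42.4 in WT control, and its lowest value rested on 7 reads. In the authors' deposited table, no member was called between arthritis and control within a genotype, or between genotypes within a state, at an adjusted p under 0.05. That table gives an adjusted p for 34 of the 44 members in WT arthritis against WT control, 43 in Sema3b-/- arthritis against Sema3b-/- control and 44 in each genotype comparison. The lowest adjusted p in the authors' deposited table was 0.0528, for Pcna in Sema3b-/- arthritis against Sema3b-/- control, with a log2 fold change of 0.55.

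Other genes of the pathway were taken from 4 lists. Of 64 tested other mitosis genes, 6 rose and 1 fell in Sema3b-/- arthritis, 1 rose in WT arthritis, and 11 rose and 1 fell in the average. The shares called higher were 9.38%, 1.56% and 17.2%, against 6.84%, 2.64% and 12.6% of all genes, and so near the background. Subunits of the NDC80 complex, which attaches kinetochores to microtubules, were among them. Spc24 had 260.4, 407, 183, 214 and 177 normalized counts in Sema3b-/- arthritis, 91.7, 133, 138, 181 and 149 in WT arthritis, 68.8, 105, 107 and 89.9 in Sema3b-/- control, and 84.0, 64.1, 89.1 and 63.9 in WT control. Every arthritis library was above every control of its genotype. Spc24 rose by 1.36 ± 0.24 in Sema3b-/- arthritis (limma adjusted p = 0.00229), a call kept in 30 of 30 alternatives, and had 0.85 ± 0.24 in WT arthritis (limma adjusted p = 0.0512). Nuf2 rose by 1.10 ± 0.28 in Sema3b-/- arthritis, with 145 to 226 normalized counts against 54.0 to 144 in Sema3b-/- control (limma adjusted p = 0.0163, and no call without Sema3b-/- control replicate 4). Spc25 (1.05), Mad2l1 (0.87) and Cks1b (0.84) also rose there. Their calls were lost without Sema3b-/- control replicate 3, and further without Sema3b-/- arthritis replicate 2 (Spc25, Mad2l1), Sema3b-/- arthritis replicate 1 (Mad2l1) or Sema3b-/- control replicate 1 (Cks1b), with 0.87 to 1.33 for Spc25, 0.56 to 1.02 for Mad2l1 and 0.67 to 0.99 for Cks1b. Kif20b, a mitotic kinesin, rose in WT arthritis too, by 1.34 ± 0.34 (limma adjusted p = 0.0318, lost without WT arthritis replicate 1, 3 or 4 or any 1 WT control, 1.17 to 1.48). The gene that fell, Cdc25b, a phosphatase that activates Cdk1, was named after its values were seen and fell by 0.67 in Sema3b-/- arthritis.

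Of 54 tested other replication genes, 1 rose in Sema3b-/- arthritis and 9 rose in the average, with none called lower. The shares called higher were 1.85% and 16.7%, against 6.84% and 12.6% of all genes. In Sema3b-/- arthritis it was Rfc5, a clamp loader subunit, at 0.82 ± 0.26 (limma adjusted p = 0.0475, lost in 21 of 30 alternatives, with any 1 Sema3b-/- arthritis library left out among them, 0.65 to 0.99). Rfc5 rose by 0.80 ± 0.18 in the average (limma adjusted p = 0.00513). Orc4 and Orc6 of the origin recognition complex rose by 0.52 and 0.47 in the average, and Dut, which removes dUTP, by 0.60.

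G1 regulators had no common direction, with 14 of 27 above 0 in the average and a median of 0.03. Of 27 tested, 3 fell and none rose in Sema3b-/- arthritis, none was called in WT arthritis, and 4 fell and 1 rose in the average. The shares called lower were 11.1% in Sema3b-/- arthritis and 14.8% in the average, against 5.55% and 10.9% of all genes. E2f2 had 110.1, 94.8, 80.4, 126 and 52.1 normalized counts in Sema3b-/- arthritis, 51.7, 136, 95.4, 82.5 and 84.9 in WT arthritis, 267, 393, 151 and 137 in Sema3b-/- control, and 190.1, 132, 146 and 109 in WT control. It fell by 1.27 in Sema3b-/- arthritis (SE 0.32, limma adjusted p = 0.0178, no call without Sema3b-/- control replicate 1 or 2) and by 0.99 in the average. E2f2 is known to act in red cell precursors, and values of erythroid markers are given with the other markers. E2f6, a repressor, and Lin37, a DREAM subunit, fell by 0.84 and 0.85 in Sema3b-/- arthritis, lost in 8 and 13 of 30 alternatives, each of them without Sema3b-/- arthritis replicate 3 or Sema3b-/- control replicate 1, 3 or 4 (-0.96 to -0.66 for E2f6, -1.02 to -0.65 for Lin37). In the average Ccnd2 and Ccnd3, D cyclins of G1, fell by 0.39 and 0.56, and Myc, a driver of growth, rose by 0.47. The calls of Ccnd3 and Myc were lost in 14 and 15 of 29 alternatives, without any 1 of WT control replicates 2 to 4 among them (-0.67 to -0.40 for Ccnd3, 0.40 to 0.53 for Myc).

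Among 21 tested CDK inhibitors and p53 targets, Cdkn1a, which encodes p21, an inhibitor of cyclin-dependent kinases, fell in arthritis in both genotypes. It had 1046, 687, 1281, 1306 and 1004 normalized counts in Sema3b-/- arthritis, 1127, 1424, 1214, 952 and 1034 in WT arthritis, 2112, 1587, 2073 and 3171 in Sema3b-/- control, and 1836, 1992, 1973 and 1815 in WT control. No arthritis library reached any control. Cdkn1a fell by 1.06 in Sema3b-/- arthritis (SE 0.19, limma adjusted p = 0.00283, kept in 30 of 30 alternatives) and by 0.74 in WT arthritis (SE 0.19, limma adjusted p = 0.0379, lost in 11 of 30 alternatives, without any 1 WT control or WT arthritis replicate 3, 4 or 5 among them, -0.82 to -0.67). Bax, a p53 target that promotes apoptosis, rose by 1.02 ± 0.26 in Sema3b-/- arthritis (limma adjusted p = 0.0174, lost without Sema3b-/- control replicate 1) and by 1.06 ± 0.26 in WT arthritis (limma adjusted p = 0.0285, lost in 12 of 30 alternatives, without the same WT libraries among them, 0.93 to 1.24). Phlda3, another p53 target, fell by 0.80 in Sema3b-/- arthritis (lost in 16 of 30 alternatives, without any 1 Sema3b-/- arthritis library among them, -1.03 to -0.57), and Mdm2, the p53 ubiquitin ligase, rose by 0.47 in the average. The list thus held called genes of both signs, 1 higher and 2 lower in Sema3b-/- arthritis, 1 and 1 in WT arthritis and 2 and 2 in the average. The shares were 4.76% higher and 9.52% lower in Sema3b-/- arthritis (6.84% and 5.55% of all genes), 4.76% each way in WT arthritis (2.64% and 1.58%) and 9.52% each way in the average (12.6% and 10.9%).

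The 1 pathway gene called in a genotype comparison was Cdkn1b, which encodes p27, the inhibitor that holds cells out of S phase. It had 609, 456, 891, 936 and 493 normalized counts in Sema3b-/- arthritis and 949, 987, 1096, 994 and 986 in WT arthritis. It had 635, 552, 527 and 592 in Sema3b-/- control and 834, 1076, 993 and 1077 in WT control. Every Sema3b-/- library was below every WT library of the same state, which held in that direction for 0.999% of all genes in arthritis and 2.13% in control. Cdkn1b fell by 0.70 in Sema3b-/- in the contrast averaged over both states (SE 0.13, limma adjusted p = 0.0421). In the single states its -0.63 ± 0.17 in arthritis (limma adjusted p = 0.267) and -0.78 ± 0.19 in control (limma adjusted p = 0.491) were not called. The call was lost in 21 of 29 alternatives, including every fit without 1 library except those without Sema3b-/- arthritis replicate 3 or 4 (-0.77 to -0.64). Where no gene of a list was called between genotypes, those with the lowest p in arthritis were Uhrf1 at 0.89, Spc24 at 0.80 and E2f6 at -0.62, and in control Rad51ap1 at 1.14, Ncapd2 at 0.81 and E2f4 at 0.54. In the contrast averaged over both states they were Chaf1b at 1.02, Ckap2l at 0.58 and E2f4 at 0.41.

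**Figure D3:**
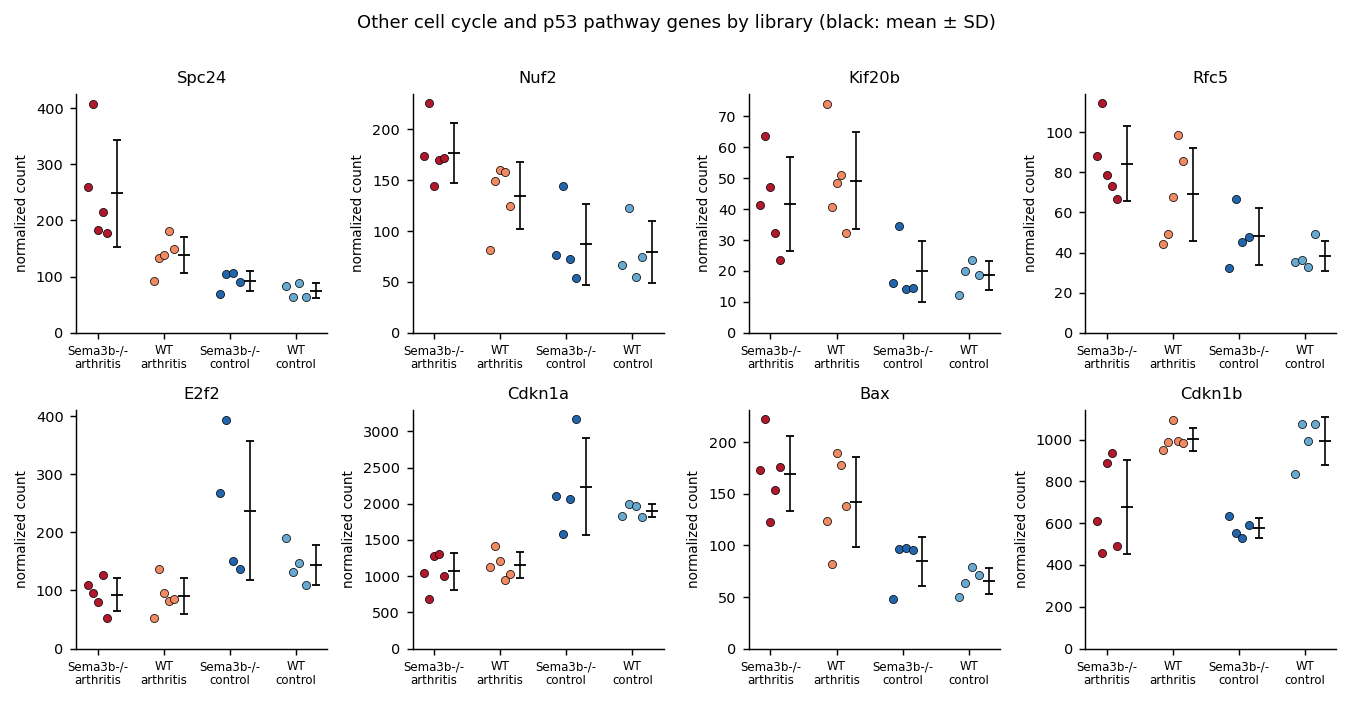
Normalized counts per library of 8 other cell cycle and p53 pathway genes, with the mean ± SD of each group in black (n = 5, 5, 4 and 4). Spc24 is higher and Cdkn1a lower in arthritis of both genotypes without overlap, and Cdkn1b is lower in Sema3b-/- than in WT libraries of the same state.

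Markers of tissues that hold cycling cells, and of skeletal muscle, also differed between libraries. They are some of the 16 marker lists read. Summed megakaryocyte and stem or progenitor markers ran from 4078 to 11925 in Sema3b-/- arthritis and 3587 to 13540.5 in WT arthritis. They ran from 5110 to 13806 in Sema3b-/- control and 6041 to 7860 in WT control. In the average over genotypes, 1 of 8 was called higher and 2 lower. There, 6 of 8 osteoblast and osteocyte and 4 of 8 chondrocyte markers were called lower, against 10.9% of all genes. Summed markers of marrow neutrophil precursors (11 genes) ran from 1288 to 19831 normalized counts in Sema3b-/- arthritis, 3159 to 25902 in WT arthritis, 4366 to 19999 in Sema3b-/- control and 3687 to 6191 in WT control, and none of the 11 was called in the average over genotypes. Summed erythroid markers (13 genes) ran from 510 to 1993 in Sema3b-/- arthritis, 331 to 2120.1 in WT arthritis, 1128 to 4520 in Sema3b-/- control and 830.4 to 1575 in WT control, with 0 of 12 tested called. B lineage markers (12 genes) ran from 539.7 to 1804 in Sema3b-/- arthritis, 666 to 1297 in WT arthritis, 1353 to 4736 in Sema3b-/- control and 1419.6 to 2723 in WT control. In the average, 8 of 11 tested were called lower, against 10.9% of all genes. Markers of monocytes and macrophages ran from 9609 to 15027 in Sema3b-/- arthritis, 6436 to 15286 in WT arthritis, 5153 to 7591 in Sema3b-/- control and 5585 to 7221 in WT control. Of these, 8 of 11 were called higher, against 12.6% of all genes. Skeletal muscle markers ran from 8819 to 75836 in Sema3b-/- arthritis, 8555 to 156188 in WT arthritis, 81338 to 208029 in Sema3b-/- control and 80459 to 108756 in WT control, and 3 of 10 were called lower. Basal epidermis markers (7 genes) ran from 451 to 8593 in Sema3b-/- arthritis, 363 to 9264 in WT arthritis, 3915 to 20272 in Sema3b-/- control and 5301 to 11188 in WT control, and 1 of 7 was called lower. Synovial fibroblast markers ran from 116002 to 281453 in Sema3b-/- arthritis, 93133 to 433070 in WT arthritis, 108887 to 776172 in Sema3b-/- control and 235065 to 281482 in WT control. Of these, 2 of 11 were called higher and 1 lower. The list includes the collagens Col1a1, Col1a2 and Col3a1, and a sum weighs its most abundant genes most. Within Sema3b-/-, the mean sum was 193023 in arthritis and 449786 in control. The mean over its genes of log2(normalized count + 1) was 11.26 in arthritis and 11.10 in control. Sema3b-/- control replicate 2 was the highest control for the cell cycle genes and for the neutrophil precursor, erythroid and B lineage markers. Sema3b-/- arthritis replicate 2, highest for the cell cycle genes, had 7821 neutrophil precursor and 1033 erythroid counts, near the middle of its group. The same library had the group's highest synovial fibroblast sum (281453) and its lowest skeletal muscle (8819) and basal epidermis (451) sums. The part of these tissues in the results above was not tested.

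**Figure D4:**
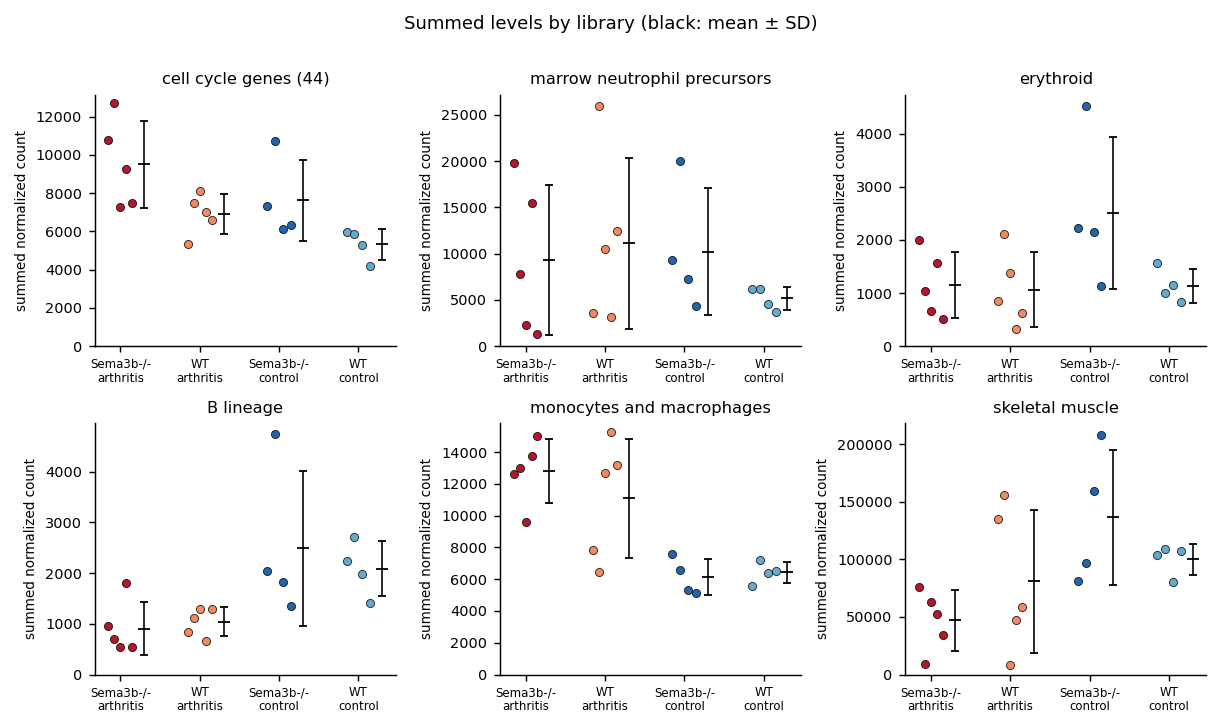
Summed normalized counts per library of the 44 cell cycle genes and of 5 marker lists, with the mean ± SD of each group in black (n = 5, 5, 4 and 4). Sema3b-/- control replicate 2 is the highest control in the cell cycle, neutrophil precursor, erythroid and B lineage panels.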

How the data were processed

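Forepaw RNA was sequenced by CEL-seq in 18 libraries. Reads were aligned to mm10 with BWA and normalized with DESeq2 1.32, per the submitters' processing notes; for the counting tool and the use of molecular barcodes nothing is given in these sources. The authors deposited a signal per gene and library, a read count divided by a size factor, called the normalized count here. Whole reads were recovered for 100% of values within 0.02 of a read. The authors also deposited tables with log2 fold changes, p-values and score columns (a standard error and a test statistic), used only where named. In the gene column, 26 names had been turned to dates.

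Genes with a normalized count of at least 10 in at least 4 libraries (13809 of 18585) were tested with limma 3.58.1 in R 4.3.3 (trend, robust), on log2(normalized count + 1), with 1 mean for each of the 4 groups. Fold changes on this scale understate the change of low genes. Calls are Benjamini-Hochberg adjusted p under 0.05 over all tested genes, and the fit was tested on simulated data. Alternatives were edgeR 4.0.16 and DESeq2 1.42.0 on recovered reads, other pseudocounts (0.5 and 5), filters (none, and a value of 30) and scaling (TMM), only the groups compared, sex as a term, a replicate block and libraries left out. The fit without the 2 libraries low in muscle and epidermis, and the genotype contrast averaged over both states, were added after the data were seen.

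The members and lists were chosen with earlier results of these data known. Values in every library are given for members called and for the 2 members of each role with the lowest p in the average over genotypes; Plk1 was added after its values were seen. Pathway genes are named if called, at most 5 per list and comparison, or else by lowest p; 1 result of this rule is not reported here. Libraries of a group differed beyond sampling noise in all 32 pairs. The labels do not state that libraries of 1 group came from separate mice. Both sexes were read in Sema3b-/- arthritis, WT arthritis and Sema3b-/- control, so each of these groups holds more than 1 mouse. How many mice each group holds is not given. The p-values cover only the variation among libraries, part of which may be technical. The column name of Sema3b-/- arthritis replicate 5 ends like those of the controls, but its title and treatment label say arthritis and were followed. Titles of Sema3b-/- control replicates 3 and 4 carry the same label in brackets, and the second was numbered 4 here. By Xist and Y-linked genes, replicate 3 was male and replicate 4 female. Promoter sequences are from RefSeq (GRCm38.p6).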

Additional observations from a re-analysis of the deposited data

Results flagged for a closer look

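In 148 checks of a single library against the rest of its group, 8 had a gap to the nearest library that took more of the group's range than Dixon's 95% critical value, and chance gives about 1 in 20. Sema3b-/- control replicate 2 was high in 4 of them. It had 207 normalized counts of Tk1 against 117 to 126 in the other Sema3b-/- controls (ratio 0.905), and 524 of Cdk1 against 359 to 380.3 (0.868). It also had 120.1 of Plk1 against 60.0 to 70.0 (0.832) and 34.6 of Kif20b against 14.2 to 16.2 (0.905). Sema3b-/- control replicate 1, the shallowest library, was low for Bax, with 48.6 against 95.9 to 97.4 (0.971), and high for Lin37, with 109 against 59.4 to 67.2 (0.844). Sema3b-/- arthritis replicate 2 was high for Cdk1, with 1120.1 against 508 to 658 (0.755). WT arthritis replicate 3 was high for Cenpe, with 197 against 107 to 127 (0.781).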

How the results depend on the processing

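Members called, 7 in the average over genotypes, became 2 with sex as a term, 2 without the 2 libraries lowest in muscle and epidermis, 1 without the 3 arthritis libraries with other titles, and 4 to 15 with 1 library left out. Within Sema3b-/-, 1 became 2 with DESeq2 or sex as a term, 0 with only the groups compared or without those 3 libraries, and 0 to 5 with 1 library left out. Within WT, 0 became 1 with DESeq2 and 0 to 1 with 1 library left out. For the genotype average, 0 became 2 with DESeq2. Medians with 1 library left out ran from 0.30 to 0.45 in the arthritis average, 0.28 to 0.58 within Sema3b-/-, 0.20 to 0.44 within WT, 0.37 to 0.58 between genotypes in arthritis, 0.25 to 0.51 in control, 0.36 to 0.50 in their average and -0.09 to 0.20 for the interaction. Of 76 gene results, 3 changed sign in some alternative, all within Sema3b-/-. Rrm1 had -0.0226 and Top2a -0.0103 without the 3 libraries. Mki67, at -0.04, had 0.0025 with sex as a term, 0.0475 with the replicate block and -0.16 to 0.13 with 1 library left out. Replicate numbers do not pair the samples: 3 of 18 libraries were closest to their own number, and 25 same-number pairs had correlations from -0.66 to 0.41. The replicate block called 10 members in the arthritis average. Depth limits low genes such as Bub1 and Ttk most, and the causes of these changes were not tested.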
